A study of Mus musculus with 4 samples.

Results

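A run of 3 neighbouring genes on mouse chromosome 12, Exoc3l4, Tnfaip2 and Gm266, is described here with the nearby genes Cdc42bpb and Eif5 and with 3 relatives of Exoc3l4 elsewhere in the genome, Exoc3, Exoc3l and Exoc3l2. The 8 genes were taken by exact gene symbol from the probe annotation of the array. They were found on 17 of 34945 probe sets that name 1 gene, and make up 8 of the 18193 genes so named. They were chosen with the treatment result in view, so their differences between groups are described without a test.

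The RNA came from T29, a mouse thymic lymphoma cell line described by the submitters as Ikaros-deficient. All 4 samples had been transduced with MigR1-MLER, a retroviral vector for dominant-negative Mastermind in an inducible form. Mastermind is a co-activator of Notch, and its dominant-negative form blocks Notch-dependent transcription. The control group (2 samples) received ethanol for 24 h and the treated group (2 samples) received 100 nM 4OHT, a tamoxifen metabolite, for 24 h. Untransduced cells were not analysed here, so effects of 4OHT itself and of the induced protein cannot be told apart. T29 is a single cell line, and the labels do not say whether replicates were separate cultures. The p-values therefore reflect only how these 4 samples vary, and that variation may be technical.

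The exocyst is a protein complex that tethers secretory vesicles to the plasma membrane before they fuse. Exoc3, also called Sec6, is one of its subunits. Tnfaip2, also called M-Sec, is a Sec6-related protein induced by tumour necrosis factor in endothelial and myeloid cells, and drives the formation of tunnelling nanotubes together with the small GTPase RalA. Exoc3l, Exoc3l2 and Exoc3l4 share the Sec6-related region. Eif5 encodes the translation initiation factor that makes eIF2 hydrolyse GTP at the start codon, and Cdc42bpb encodes MRCK beta, a kinase that acts on myosin downstream of CDC42.

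The 2 ethanol samples gave log2 values of 8.88 and 9.08 for Exoc3l4, against 5.25 and 5.01 in the 2 4OHT samples. Only 1 probe set used here, 1428420_a_at, names this gene, so probe sets could not be compared. The groups were 3.63 log2 units apart at their nearest values. The mean was 8.98 ± 0.14 with ethanol and 5.13 ± 0.17 with 4OHT (SD, n = 2 each), a log2 difference of -3.84, or 14.4-fold. The values are log2 expression values made by the authors with RMA, a method that corrects, equalises and summarises probe signals. Genes were tested only where the mean over all 4 arrays reached 4.81, the 40th percentile of named probe sets. With 4OHT, Exoc3l4 was close to that floor, where a fold can be understated. In these bulk samples, fewer cells expressing a gene and less RNA per cell cannot be told apart.

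Gm266, a predicted protein-coding gene, had a difference of like size. Its values were 10.27 and 10.39 with ethanol and 6.38 and 6.66 with 4OHT. The means, 10.33 ± 0.09 and 6.52 ± 0.20 (SD, n = 2 each), differed by -3.81 on the log2 scale, or 14.1-fold. Among the 11581 tested genes, Exoc3l4 had the lowest difference and Gm266 the second lowest. No tested gene differed by more in either direction. The dimmer probe set of Gm266, 1438770_at, gave 5.71 and 5.60 with ethanol and 5.13 and 5.17 with 4OHT, a difference of only -0.50. Both probe sets were lower in every 4OHT sample, but the fold depended on which one was read. In the RefSeq gene table, Gm266 lies within the span of a long non-coding RNA gene, Gm40578. Which strand and transcript its probes read was not tested.

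Tnfaip2, which lies between the other two, was lower by a size that varied between its 3 probe sets. The lead probe set (the one with the highest mean), 1416273_at, gave 7.28 and 7.74 with ethanol and 6.03 and 6.25 with 4OHT. These values differed by -1.37 on the log2 scale, or 2.58-fold, and the groups did not overlap. The probe set 1438855_x_at gave 7.48 and 7.80 with ethanol, but 3.75 and 4.84 with 4OHT, a log2 difference of -3.35. Its 4OHT mean of 4.29 lay below the floor, where a fold can be understated, so no fold is given. Its suffix marks probes that may cross-hybridise, and its 4OHT values were the most widely spread of all 17 probe sets, with an SD of 0.77. The third probe set, 1457918_at, was dim and gave 5.33 and 5.21 with ethanol against 4.95 and 4.71 with 4OHT. All 3 probe sets were lower in both 4OHT samples, with differences from -3.35 to -0.44.

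**Figure D1:**
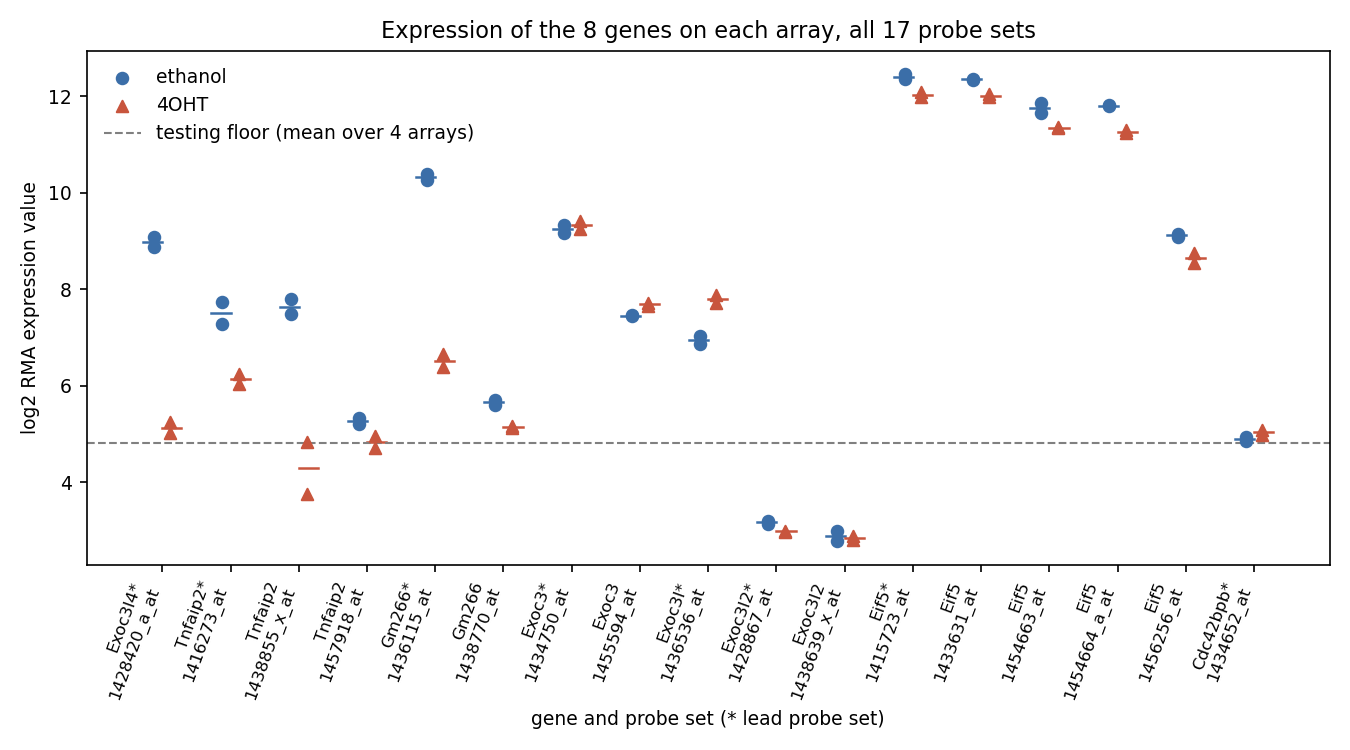
Log2 RMA expression values (vertical axis) of all 17 probe sets of the 8 genes (horizontal axis), with 1 point per array, circles for ethanol and triangles for 4OHT. Short lines are group means and the dashed line is the testing floor of 4.81. The groups are widely apart for Exoc3l4, 1 Gm266 probe set and 1 Tnfaip2 probe set, while Exoc3l2 stays below the floor in both groups.

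The genes on either side of this run had smaller differences. Eif5, the next protein-coding gene after Gm266, gave 12.35 and 12.46 with ethanol and 11.99 and 12.09 with 4OHT on its lead probe set. Its difference was -0.37, or 1.29-fold. All 5 of its probe sets were lower in both 4OHT samples, with differences from -0.54 to -0.34. These 5 read transcripts of a single gene and are not independent of each other. On the other side, Cdc42bpb gave 4.85 and 4.93 with ethanol and 5.09 and 4.97 with 4OHT. Its difference of 0.14 lay just above the floor, so little can be read from it. Lbhd2, which lies between Cdc42bpb and Exoc3l4, was also dim, at 5.01 ± 0.11 with ethanol and 4.85 ± 0.02 with 4OHT (SD, n = 2 each; limma adjusted p = 0.346).

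A wider view took the 10 nearest other protein-coding genes on each side of Exoc3l4 in RefSeq order. Of these 20 neighbours, 19 had a named probe set and 18 were tested; Traf3 had none in the annotation used here and Amn was below the floor. In limma, 2 were lower and 1 was higher at an adjusted p under 0.05, and 15 did not pass. Over all tested genes, 3.57% were called lower, 3.90% higher and 7.47% in either direction. The neighbours' median difference was 0.03, against -0.01 for all tested genes.

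Trmt61a, the catalytic subunit of a tRNA methyltransferase, gave 8.76 and 8.59 with ethanol and 7.97 and 7.85 with 4OHT. It fell 1.70-fold (log2 change -0.77 ± 0.10 SE, limma adjusted p = 0.0218). Cinp, a CDK2-interacting protein gene, fell 1.45-fold (-0.53 ± 0.09 SE, limma adjusted p = 0.0305). Its second, dimmer probe set differed by 0.03, and the mean of both did not pass (limma adjusted p = 0.134). Ppp1r13b, which encodes the p53-binding protein ASPP1, rose 1.57-fold (0.65 ± 0.12 SE, limma adjusted p = 0.0393). These 3 genes lie 8 genes before Exoc3l4 (Cinp) and 6 and 12 genes after it (Trmt61a and Ppp1r13b), and genes that did not pass lie between them and the run. None of the 3 calls held when any 1 of the 4 arrays was left out (limma adjusted p from 0.0506 to 0.129), with 3, 3, 3 and 4 neighbours at an unadjusted p under 0.05.

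**Figure D2:**
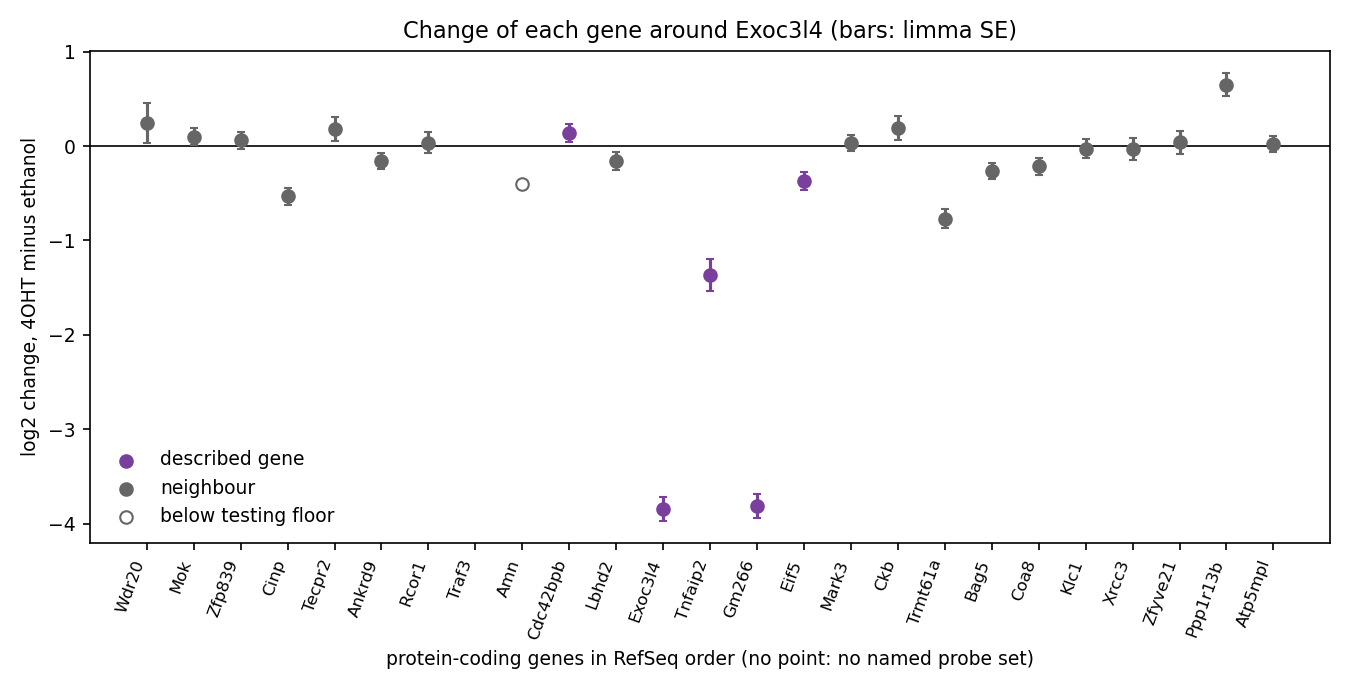
Log2 change with 4OHT against ethanol (vertical axis) of the lead probe set of each protein-coding gene around Exoc3l4, in RefSeq order (horizontal axis). Bars are limma standard errors and the open point is below the testing floor. Exoc3l4, Tnfaip2 and Gm266 sit next to each other at -3.84, -1.37 and -3.81, while every neighbour with a point lies between -0.77 and 0.65.

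Promoter sequence was a property that the choice of genes had not used. RefSeq promoter entries (GRCm38.p6) were found for 7 of the 8 genes, all but Exoc3l, and the 250 bases before each annotated start were searched on both strands. The letters TGGGAA are the core bound by RBPJ, the DNA-binding partner of Notch, and they include GGGAA, the core bound by Ikaros. This core was in the window of Tnfaip2, Gm266 and Eif5. It was absent from both overlapping windows of Exoc3l4 and from those of Exoc3, Exoc3l2 and Cdc42bpb. Of all 32851 promoter windows of that length, 21.6% held it. The 4 windows below are shown because they set the run of 3 genes beside Eif5, with the core in capitals, each written 5′ to 3′ on the gene's own strand.
Exoc3l4, chr12:111417180-111417429, plus strand: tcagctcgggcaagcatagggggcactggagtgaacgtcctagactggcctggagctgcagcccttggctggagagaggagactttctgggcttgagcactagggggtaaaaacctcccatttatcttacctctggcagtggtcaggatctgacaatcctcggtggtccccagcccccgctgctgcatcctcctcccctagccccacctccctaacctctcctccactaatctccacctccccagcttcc
Tnfaip2, chr12:111442411-111442660, plus strand: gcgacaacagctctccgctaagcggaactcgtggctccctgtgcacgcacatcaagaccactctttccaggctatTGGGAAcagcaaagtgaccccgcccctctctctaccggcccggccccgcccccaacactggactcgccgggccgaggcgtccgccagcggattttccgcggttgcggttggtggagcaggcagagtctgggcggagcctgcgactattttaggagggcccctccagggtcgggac
Gm266, chr12:111485824-111486073, minus strand: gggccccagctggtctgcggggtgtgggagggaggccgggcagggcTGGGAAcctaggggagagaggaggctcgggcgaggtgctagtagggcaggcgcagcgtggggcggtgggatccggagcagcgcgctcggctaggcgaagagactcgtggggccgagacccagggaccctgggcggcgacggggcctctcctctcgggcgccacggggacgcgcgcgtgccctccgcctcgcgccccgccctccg
Eif5, chr12:111537851-111538100, plus strand: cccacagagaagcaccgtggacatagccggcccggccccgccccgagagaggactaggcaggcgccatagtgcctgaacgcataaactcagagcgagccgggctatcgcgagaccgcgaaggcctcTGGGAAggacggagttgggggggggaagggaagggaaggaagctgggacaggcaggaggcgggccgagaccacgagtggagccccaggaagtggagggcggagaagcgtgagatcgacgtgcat

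The match began 175 bases before the annotated start in Tnfaip2, 204 before it in Gm266 and 124 before it in Eif5, each time on the gene's strand. The longer RBPJ letters CGTGGGAA, in 0.636% of all windows, and the E-box CACGTG, bound by MYC and related factors and in 6.02% of all windows, were in no window of the 7 genes. A match is a description of the letters, and the absence of one says only that they are not in this window. The base composition differed along the run, with 59.6% G and C in the printed window of Exoc3l4, 65.6% in that of Tnfaip2 and 76.8% in that of Gm266.

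The relatives of Exoc3l4 elsewhere in the genome had small differences or, for Exoc3l, one of the opposite sign. Exoc3, the exocyst subunit, gave 9.32 and 9.16 with ethanol and 9.24 and 9.42 with 4OHT on its lead probe set. These groups overlapped, with a difference of 0.09. Its second probe set was 0.23 higher with 4OHT, from 7.45 ± 0.01 to 7.69 ± 0.03 (SD, n = 2 each), without overlap. Exoc3l, which has been linked to secretory granule release, was higher with 4OHT. Its values were 6.87 and 7.04 with ethanol and 7.88 and 7.71 with 4OHT, a difference of 0.84, or 1.79-fold higher. Exoc3l2 was dim on both of its probe sets. The brighter one gave 3.20 and 3.13 with ethanol and 2.96 and 2.995 with 4OHT, below the floor on every array, and was not tested.

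Over the 17 probe sets, the groups did not overlap in the lower direction for 12 and in the higher direction for 3, and overlapped for 2. Over all named probe sets, 27.0% did not overlap in the lower direction and 20.6% in the higher. Since the genes were chosen on this contrast, these counts carry no weight of their own.

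No other exocyst subunit gene was called, while 7.47% of all tested genes were called in either direction. An absence of calls in so short a list, here or below, says little. All 8 other subunit genes, Exoc1, Exoc2, Exoc4, Exoc5, Exoc6, Exoc6b, Exoc7 and Exoc8, were tested and none passed in limma, though 3 had an unadjusted p under 0.05, of which 2 were higher and 1 was lower. The share of all tested genes with an unadjusted p under 0.05 was not counted. These counts, and those given for the other gene lists, are therefore description only. The median difference of the 8 was 0.05, and their 95% confidence intervals together ran from -0.67 to 0.74. Exoc4 was nearest to a call, with values of 9.15 and 9.39 in ethanol against 9.63 and 9.79 in 4OHT (log2 change 0.44 ± 0.12 SE, 95% confidence interval 0.14 to 0.74, limma adjusted p = 0.093). Exoc6, the subunit that binds RAB11, was at 7.83 with ethanol and 7.51 with 4OHT (limma adjusted p = 0.116).

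Genes that act on the exocyst, among them the RAL GTPases and the RAB and ARF proteins that bring it to vesicles, likewise gave no call. Of 19 listed, 17 were tested and none passed in limma, though 2, both higher, had an unadjusted p under 0.05. The median was 0.07. Ralgds, an exchange factor that activates RAL, gave 6.39 and 6.52 with ethanol against 7.34 and 6.95 with 4OHT (0.69 ± 0.15 SE, limma adjusted p = 0.0537). It passed with the floor at the 60th percentile, with an intensity trend and with the mean of probe sets (limma adjusted p = 0.0396, 0.0396 and 0.0463). Rala itself, the partner of Tnfaip2, had means of 9.48 with ethanol and 9.38 with 4OHT (95% confidence interval of the difference -0.35 to 0.14, limma adjusted p = 0.561).

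Tnfaip2 is also known as a target of tumour necrosis factor and NF-kappaB. A list of 17 other genes was drawn up for that response. It also holds NF-kappaB subunit genes, such as Nfkb2 and Relb, and relatives of Tnfaip8 that share its name. Of the 17, 11 were tested and none passed in limma. An unadjusted p under 0.05 was found for 4, of which 2 were higher, Tnfaip8l1 among them, and 2 lower. The median was 0.15. Nfkbia, which encodes the inhibitor I-kappaB alpha, was 0.40 ± 0.12 (SE) higher with 4OHT (limma adjusted p = 0.104). Nfkbie, a related inhibitor gene, was at -0.44 ± 0.12 (SE, limma adjusted p = 0.0874), and the ubiquitin-editing gene Tnfaip3 at 0.12 ± 0.20 (SE, limma adjusted p = 0.733). With an intensity trend, Nfkbia and Nfkbie passed (limma adjusted p = 0.0448 and 0.0484).

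Of 12 CDC42 and Cdc42bpb-related genes, 10 were tested and none passed in limma, even before adjustment at a p under 0.05. Their median was 0.05. Cdc42bpa, the closest kin of Cdc42bpb, was at 7.47 with ethanol and 7.43 with 4OHT (95% confidence interval of the difference -0.31 to 0.23, limma adjusted p = 0.858).

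Several genes of a list drawn up as Eif5 partners were lower. The list is broader than start-codon selection. It also holds the eIF2 exchange factor genes and genes included for their similar names, such as Eif5a, Eif5a2 and Eif1ad. Of 19 listed, 16 were tested, 3 fell in limma and none rose, against 3.57% and 3.90% of all tested genes. All 16 had a difference below 0, as did 52.3% of all tested genes. Their median was -0.23, against -0.37 for the Eif5 lead probe set and -0.01 for all tested genes. Bzw2, an Eif5-mimic protein gene, gave 10.82 and 10.76 with ethanol and 9.96 and 9.95 with 4OHT, and fell 1.78-fold (log2 change -0.83 ± 0.08 SE, limma adjusted p = 0.0121). The mean of its probe sets gave a smaller change of -0.39 (limma adjusted p = 0.0468). Eif1a, which promotes scanning by the ribosome, fell 1.52-fold (limma adjusted p = 0.0338). Eif2b3, a subunit of the eIF2 exchange factor, fell 1.49-fold (limma adjusted p = 0.0279). Without ethanol replicate 2, only Bzw2 passed (limma adjusted p = 0.047, with 7 of the 16 at an unadjusted p under 0.05). Without any other single array none did, with 5 at an unadjusted p under 0.05 each time.

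**Figure D3:**
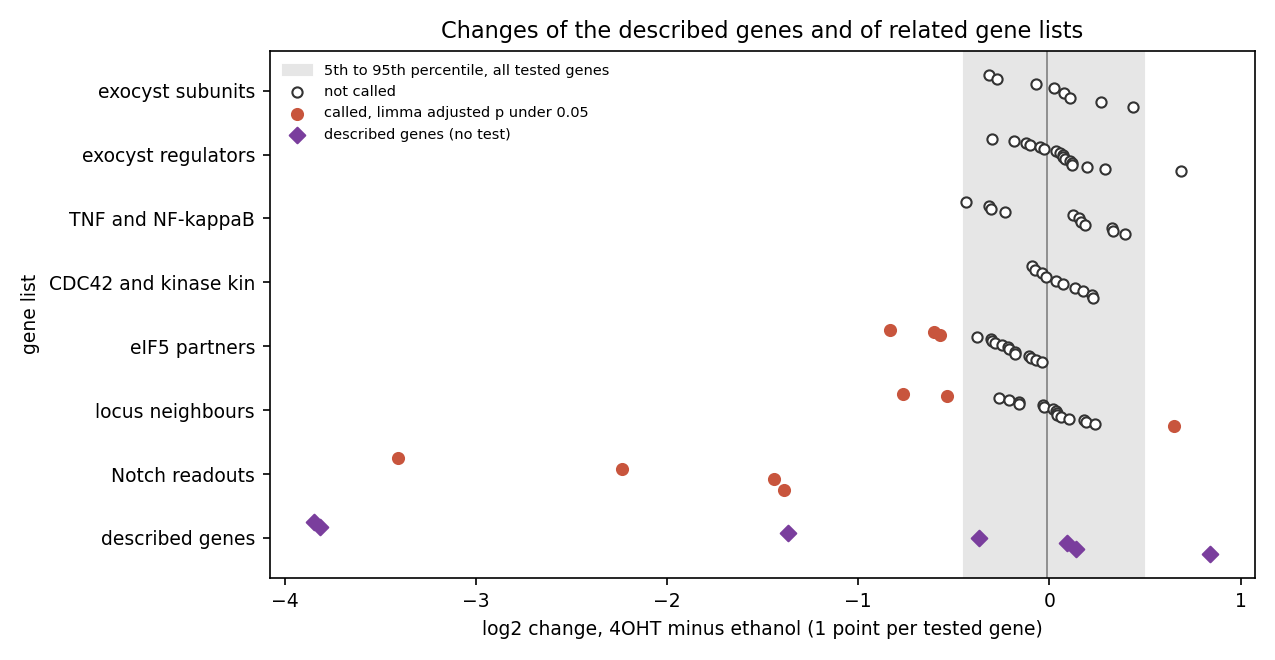
Log2 change with 4OHT against ethanol (horizontal axis) of each tested gene in 7 gene lists and of the 7 tested described genes (vertical axis). Filled circles passed limma at an adjusted p under 0.05 and the grey band spans all tested genes from their 5th to their 95th percentile, from -0.45 to 0.50. No exocyst subunit or regulator passed, while Exoc3l4 and Gm266 lie to the left of Dtx1, the Notch readout with the lowest value.

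All 4 listed Notch readouts fell in limma: Dtx1, Hes1, Ptcra and Nrarp, with a median change of -1.84. Of all tested genes, 3.57% were called lower. The 4 were listed with earlier results of these data known, so their fall is a description and cannot check the comparison. With 1 array left out, Dtx1 and Ptcra passed in all 4 fits, Hes1 in 2 and Nrarp in 1 (limma adjusted p up to 0.0686 for Hes1 and 0.122 for Nrarp). All 7 genes listed as T-cell markers with a named probe set were above the floor, from 7.64 to 13.0 in their 4-array means. Ptprc, among these, is found on leukocytes in general and is not particular to T cells. Of the 7, Cd8a and Ptprc were higher with 4OHT, 1.78-fold and 1.51-fold, and Cd3g was 1.48-fold lower (limma adjusted p = 0.0347, 0.0295 and 0.0356). With the mean of probe sets, Cd3g was still called but Cd8a and Ptprc were not. None of these 3 calls held when any 1 array was left out. Summed on the linear scale, the 7 gave 28862 and 31742 with ethanol against 31324 and 33927 with 4OHT, so the groups overlapped. Of the markers of B cells, myeloid cells, epithelial cells and erythroid cells, 2 of 4, 2 of 5, 1 of 4 and 0 of 2 with a named probe set were above it, none over 6.17. The sum of the 4 endothelial markers on the linear scale was 264 and 279 with ethanol and 434 and 486 with 4OHT. Its rise was that of Pecam1, an adhesion molecule also found on leukocytes, which rose 1.90-fold (limma adjusted p = 0.0165). The markers Cdh5 and Tek stayed below the floor, with means of 3.99 and 3.33 in ethanol against 3.95 and 3.34 in 4OHT. Kdr lay just above the floor, at 5.15 with ethanol and 5.08 with 4OHT (limma adjusted p = 0.740). A measure of RNA quality, the 18S control's 3′ level minus its 5′ level on the log2 scale, was 0.05 and 0.32 with ethanol and 0.90 and 0.82 with 4OHT. The same subtraction for the beta-actin control did not separate the groups. Its 4OHT values, 0.43 and 0.45, lay between its ethanol values, 0.40 for replicate 1 and 0.49 for replicate 2. The part of these markers and of RNA quality in the differences of the 8 genes was not tested.

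Genes with the pattern most like that of Exoc3l4 were ranked by Euclidean distance over the 4 arrays, after each gene was centred on its mean. This distance follows the same contrast and is a description. The nearest of all 11580 other tested genes was Gm266, at a distance of 0.37. Next came Dtx1, a ubiquitin ligase gene and Notch readout, at 0.49, and Afdn, the junction adaptor gene afadin, at 0.79. A gene with a clone or predicted-gene name came next and is left out here. Ifi202b, an interferon-inducible gene, was at rank 5, at 1.47. After it came Scn4b, a sodium channel subunit gene, at 1.54 and Ptcra, the pre-T-cell receptor alpha chain gene, at 1.61. Tnfaip2, although adjacent, was at rank 25, at 2.51, on its lead probe set. Its probe set 1438855_x_at, with a difference of -3.35, was not ranked, so this place depends on the probe set read. The places of Gm266 and Dtx1 likewise rest on their lead probe sets. The other Gm266 probe set differed by only -0.50, and the mean of probe sets gave -2.35 for Dtx1 against -3.41 on its lead.

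On its lead probe set, Tnfaip2 was closest to other genes of middling difference. These were Uaca at 0.26, Arhgef10l at 0.26, the aldehyde dehydrogenase gene Aldh1b1 at 0.28, the RHOA inhibitor gene Ripor2 at 0.29 and Ydjc at 0.30. Ripor2, for example, gave 7.44 and 7.66 with ethanol and 6.17 and 6.58 with 4OHT, a difference of -1.17 against -1.37 for Tnfaip2.

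**Figure D4:**
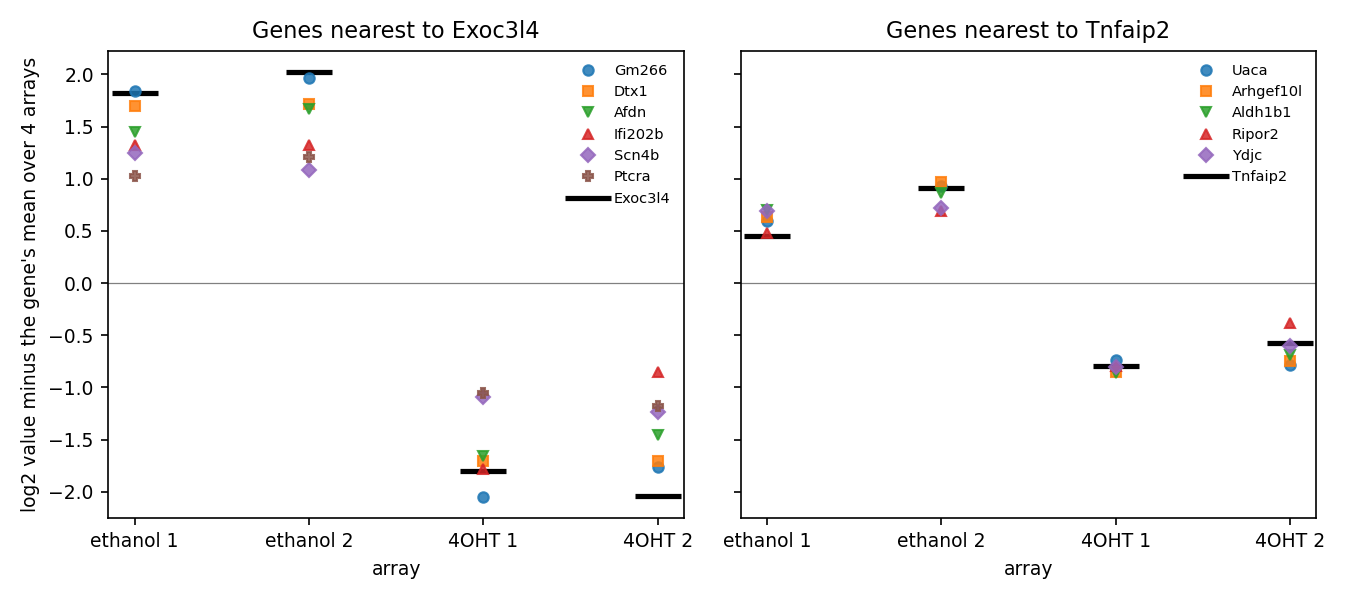
Log2 value minus the gene's mean over 4 arrays (vertical axis) on each array (horizontal axis), for the genes nearest to Exoc3l4 (left) and to Tnfaip2 (right), 1 symbol per gene. On lead probe sets and over the 4 arrays together, Gm266 is nearer to Exoc3l4 than Dtx1 and Afdn are. On 4OHT replicate 1 alone, Dtx1 (-1.70) and Afdn (-1.66) lie nearer to Exoc3l4 (-1.80) than Gm266 (-2.05) does.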

How the data were processed

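RNA from 4 samples was measured on Affymetrix arrays. The submitters' processing notes name RMA, by which the authors made the deposited log2 expression values. No RMA version is named in the sources used here. That the scale is log2 was read from the values (2.25 to 14.6). RMA gives no read depth, so the number of arrays limits the precision. Of 45101 probe sets, 34945 named exactly 1 gene; each of 18193 genes was represented by its brightest probe set over 4 arrays, and 11581 passed the floor. limma 3.58.1 in R 4.3.3 was fitted to the 4OHT and ethanol groups (no trend, no block, all 4 arrays, 2 residual degrees of freedom), with Benjamini-Hochberg adjustment over all tested genes; genes under an adjusted p of 0.05 were called. The fit was tested on simulated data. SEs and 95% confidence intervals are limma's.

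The 8 genes and the gene lists were chosen with earlier results of these data known. Named genes were all 8, up to 4 per list with called ones first, every called neighbour, and the 5 nearest genes by distance, leaving out clone and predicted-gene names apart from Gm266. Genes named beyond this (Lbhd2, Rala, Tnfaip3, Cdc42bpa and the T-cell and endothelial markers) were chosen after their values were seen. The RefSeq table (GRCm38.p6) served for gene order and promoters, and the promoter entries name that build. The array data files name none. Protein sequences were not used here. Alternatives were other floors, quantile or median scaling, a replicate block, leaving out each array, the mean of probe sets, lead probe sets without _x_at and _s_at, an intensity trend and an adjusted p under 0.1.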

Additional observations from a re-analysis of the deposited data

How the results depend on the processing

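All 81 values of the 8 genes under other settings and probe sets kept their sign, but many of them could not have changed it. The replicate block and the fit without _x_at and _s_at probe sets repeated each gene's main difference. Leaving out 1 array cannot flip a probe set whose groups do not overlap. The genes were also chosen on this contrast, so the count of 81 is description only. Exoc3l4 has only 1 probe set, 1428420_a_at, so agreement between probe sets could not be checked for it. Its range under other settings was -3.96 to -3.73. Single probe sets of Tnfaip2 ran from -3.35 to -0.44 and those of Gm266 were at -3.81 and -0.50. The mean of probe sets gave -1.72 for Tnfaip2 and -2.16 for Gm266. The counts over all genes, 452 higher and 413 lower in limma at an adjusted p under 0.05, became 853 and 824 at an adjusted p under 0.1, and the lower count 636 with an intensity trend. With the replicate block they were 1104 and 1031. In that setting limma also called 1 exocyst subunit gene, Exoc4 (adjusted p = 0.0139), and the exocyst regulator Ralgds (adjusted p = 0.0063). It also called 1 gene of the NF-kappaB response list in each direction, and 4 instead of 3 genes of the Eif5 partner list lower. Markers aside, other listed genes passing limma at an adjusted p under 0.05 included Tnfaip8l2 with no filter (adjusted p = 0.0433) and Eif1b with the 60th percentile floor (0.0451). Eif1ad passed with an intensity trend (0.0468) and Eif1ax with the mean of probe sets (0.047). Of the cell type markers, limma called Itgam higher with no filter (adjusted p = 0.0165) and Cd14 lower with quantile scaling (0.0405). It called Cd4 higher with the 60th percentile floor (0.0416) and Thy1 higher with an intensity trend (0.0298). Cd14, Cd4 and Thy1 also passed with the replicate block. Same-numbered samples deviated together (correlation 0.34), but they share only a number, and with 2 pairs this does not show that they were paired. Leaving out 1 array, which leaves 1 residual degree of freedom and assumes that the lone sample varies like the other group, gave 9 to 125 higher and 12 to 66 lower genes. Of the neighbours, 3 became 0 in each of those fits. Ppp1r13b has only an _s_at probe set, so the fit without such probe sets did not test it. The causes of these shifts were not tested. For dim genes such as Exoc3l2 and Cdc42bpb, a difference can be understated.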
